A study of Mus musculus with 13 samples.

Results

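The nuclear genes of the mitochondrial respiratory chain and of ATP synthase were followed in CD4+ T helper cells from the spleens of mice bearing a myeloma. Members were chosen by name, as gene names that begin with Nduf, Uqcr, Cox4, Cox5, Cox6, Cox7, Cox8 or Atp5, or that are Sdha, Sdhb, Sdhc or Sdhd. Names containing -ps, which mark pseudogenes and filled 15 rows, were left out. The rule found 100 of the 56748 genes in the deposited table. Complex I held 49 of them, of which 7 were core subunits, 30 accessory subunits, 8 assembly factors and 4 further gene copies. Complex II held 4, complex III 8, complex IV 21 and complex V 18. Of the 100 members, 87 had enough counts to be tested.

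The respiratory chain sits in the inner mitochondrial membrane. Complexes I and II take electrons from NADH and succinate and pass them through coenzyme Q to complex III, cytochrome c and complex IV, where oxygen is reduced, and complex V, the ATP synthase, uses the proton gradient that complexes I, III and IV build. Most subunits are encoded in the nucleus and are joined in the mitochondrion to the few that mitochondrial DNA encodes. T cells use the chain at rest and build more mitochondria when they are activated, alongside a rise in glycolysis.

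RNA was measured in 13 libraries of 5 groups. Treated Eomes-GFP mice, which carry a GFP reporter of the T-box transcription factor Eomes and received an agonist antibody against the costimulatory receptor 4-1BB, gave 3 libraries of GFP+ cells and 3 of GFP- cells, paired by library prefix. Eomes-TKO mice, a genotype whose construction is not described in the sources used here, gave 2 libraries after the 4-1BB antibody and 3 after control IgG, and Eomes-GFP mice gave 2 after control IgG. The cells of these last 3 groups were not divided by GFP, so that a GFP fraction set against them differs in gate as well as in any treatment or genotype. All mice also carried a Foxp3-Thy1.1 reporter, and cells with Thy1.1 were left out of the sort, so that Foxp3-expressing regulatory cells were removed. All had received NK1.1-depleting antibody at 50 µg on days -2 and 5, Vk12653 myeloma cells on day 0, and the 4-1BB antibody or control IgG at 20 µg on days 10, 13 and 16, and were killed on day 18.

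Libraries held 6080956 to 10881129 estimated counts, of which the members took between 0.278% and 0.405%. The summed level of 6 T cell markers (Cd3d, Cd3e, Cd3g, Cd4, Cd5 and Lck) was between 2634 and 4912 CPM. CPM are counts relative to library size, after scaling by edgeR's TMM method. Foxp3 stayed between 0.393 and 2.65 CPM. Eomes had 570, 706 and 685 CPM in GFP+ cells, against 3.54, 1.83 and 2.26 CPM in GFP- cells. It had 3.59 and 8.03 CPM in Eomes-TKO cells after the 4-1BB antibody, 1.36, 2.96 and 3.19 CPM in Eomes-TKO cells after IgG, and 14.0 and 16.8 CPM in Eomes-GFP cells after IgG. Of all 14059 genes tested, 37.1% passed an adjusted p of 0.05 between GFP+ and GFP- cells.

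Between GFP+ and GFP- cells of treated mice, 3 of the 87 tested members changed, and 84 did not pass the test. Fractions that share a library prefix were read as coming from the same animal, and this main test did not use the pairing. Cox8a rose in GFP+ cells, and Cox7a2l and Ndufaf4 fell. The share of all tested genes that were called was 37.1%, made up of 20.7% higher and 16.5% lower. At p under 0.05 without adjustment there were 10 members, beside 45.5% of all tested genes. In bulk RNA such as this, fewer cells of a type and less RNA per cell cannot be told apart.

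Cox8a encodes the smallest nuclear subunit of complex IV, a single membrane span. Its level was 87.6, 129 and 89.1 CPM in GFP+ cells, against 53.5, 65.7 and 62.6 CPM in GFP- cells. Every GFP+ library lay above every GFP- library, and the second GFP+ library stood highest. The mean was 102 ± 23.5 CPM in GFP+ cells and 60.6 ± 6.31 CPM in GFP- cells (SD, n = 3 each), a log2 fold change of 0.75 ± 0.21 (SE) with an adjusted p of 0.0124 in edgeR's quasi-likelihood test. The call passed in 12 of 15 alternative settings. It was lost without the second GFP+ library, at a log2 fold change of 0.51 and an adjusted p of 0.0802, and without the first GFP- library, at 0.67 and 0.0538.

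Cox7a2l, also called SCAF1, joins complexes III and IV into supercomplexes. It had 130, 158 and 140 CPM in GFP+ cells, against 202, 250 and 233 CPM in GFP- cells. The groups did not overlap, and the 3 pairs of fractions from the same prefix gave log2 ratios of -0.64, -0.66 and -0.73. The fitted log2 fold change was -0.68 ± 0.16 (SE, adjusted p = 0.00338). The call passed in 15 of 15 alternative settings, with fold changes between -0.82 and -0.61.

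Ndufaf4 is an assembly factor that acts with Ndufaf3 in early steps of building complex I. It had 12.6, 11.1 and 14.0 CPM in GFP+ cells, against 17.2, 23.1 and 21.3 CPM in GFP- cells. All 3 GFP+ libraries were below all 3 GFP- libraries and below each of the other 7 libraries, which ran between 17.8 and 23.3 CPM. The log2 fold change was -0.71 ± 0.16 (SE, adjusted p = 0.00278), and it passed in 15 of 15 alternative settings.

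**Figure D1:**
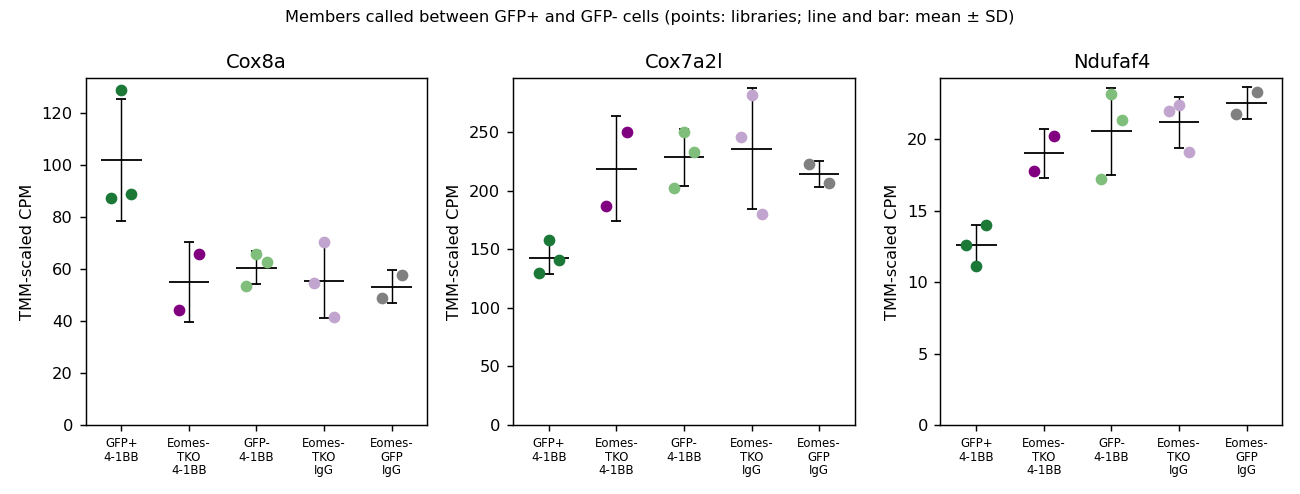
Levels of Cox8a, Cox7a2l and Ndufaf4 in each of the 13 libraries, in TMM-scaled CPM on axes that start at 0, with 1 point per library and the mean ± SD of each group as a line and bar. The 3 GFP+ libraries lie above the 3 GFP- libraries for Cox8a and below them for Cox7a2l and Ndufaf4, and the groups that were not divided by GFP lie near the GFP- libraries.

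The 250 bases before the transcription start of these 3 called genes are shown, since they are the only members that passed the test between the sorted fractions. They come from RefSeq on the GRCm38.p6 build and read 5′ to 3′ on the strand of each gene, which is minus for Cox8a at chr19:7217617-7217866, minus for Cox7a2l at chr17:83514334-83514583 and plus for Ndufaf4 at chr4:24897833-24898082. Capitals mark a match to a word of the nuclear respiratory factor NRF1, GCGCNTGCG, searched on both strands.
Cox8a: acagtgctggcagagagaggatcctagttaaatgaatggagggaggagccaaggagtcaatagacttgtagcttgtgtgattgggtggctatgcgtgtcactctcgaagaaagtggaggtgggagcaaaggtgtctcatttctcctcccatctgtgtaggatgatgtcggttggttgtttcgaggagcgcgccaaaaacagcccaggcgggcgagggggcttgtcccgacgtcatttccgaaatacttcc
Cox7a2l: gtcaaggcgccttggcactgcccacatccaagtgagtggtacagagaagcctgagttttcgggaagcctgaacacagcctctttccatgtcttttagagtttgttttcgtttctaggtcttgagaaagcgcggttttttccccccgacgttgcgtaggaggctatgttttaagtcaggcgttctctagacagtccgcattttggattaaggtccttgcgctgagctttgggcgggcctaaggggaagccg
Ndufaf4: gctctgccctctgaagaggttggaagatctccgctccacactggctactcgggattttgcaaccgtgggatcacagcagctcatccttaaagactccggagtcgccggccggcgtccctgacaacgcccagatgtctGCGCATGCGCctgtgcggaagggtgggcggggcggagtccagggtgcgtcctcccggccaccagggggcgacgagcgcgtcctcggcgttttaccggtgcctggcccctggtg

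The Ndufaf4 window held the NRF1 word on both strands, in overlapping matches that begin 113 and 112 bases before the start, and the windows of Cox8a and Cox7a2l held none of the 4 words searched. Promoter windows were found for 73 of the 87 tested members. The NRF1 word was in 18 of these 73, or 24.7%, and in 5.88% of the 27025 genes with a window. The 73 members all had enough counts to be tested, whereas the 27025 genes were not limited to tested genes. Matches of this and the other words were not counted among the tested genes alone. The part of expression in the differences was therefore not tested. The ETS word CCGGAAGT, to which GABP binds, was in 3 members, or 4.11%, against 3.23% of all genes. The YY1 word AAGATGGCG was in 1 member, or 1.37%, against 0.71% of all genes, and the E-box CACGTG, a word of MYC and of other factors that is not contained in the other words, was in 6, or 8.22%, against 6.86%. These are matches of letters and not measured binding sites.

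Across the 87 members the fold changes between GFP+ and GFP- cells lay close to 0. Their median log2 fold change was 0.04, with 54 positive and 33 negative, beside a median of 0.02 over all tested genes. With upper-quartile scaling in place of TMM the median of all genes moved to -0.12 and that of the members to -0.09, with 30 of 87 positive, so that the sign of the family's small shift depends on the scaling. Without the third GFP+ library the median of the members was -0.00599, with 43 of 87 positive, and without the second GFP- library it was 0.12, with 60 of 87 positive. The median of the members lay 0.02 above that of all genes with TMM and 0.03 above it with upper-quartile scaling. With that scaling the genes called over the whole table were 2186 higher and 3095 lower, against 2905 higher and 2315 lower with TMM.

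A fold change that misses the threshold does not show that 2 levels are equal, so the 95% intervals were counted. The interval lay wholly within a 2-fold change for 66 of the 87 members, or 75.9%, against 52.8% of all genes, and within a 1.5-fold change for 29 members, or 33.3%, against 27.1% of all genes. It lay wholly beyond a 1.5-fold change for 0 members and for 15.7% of all genes. For 21 members, then, a 2-fold difference between the fractions was not excluded by the interval.

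**Figure D2:**
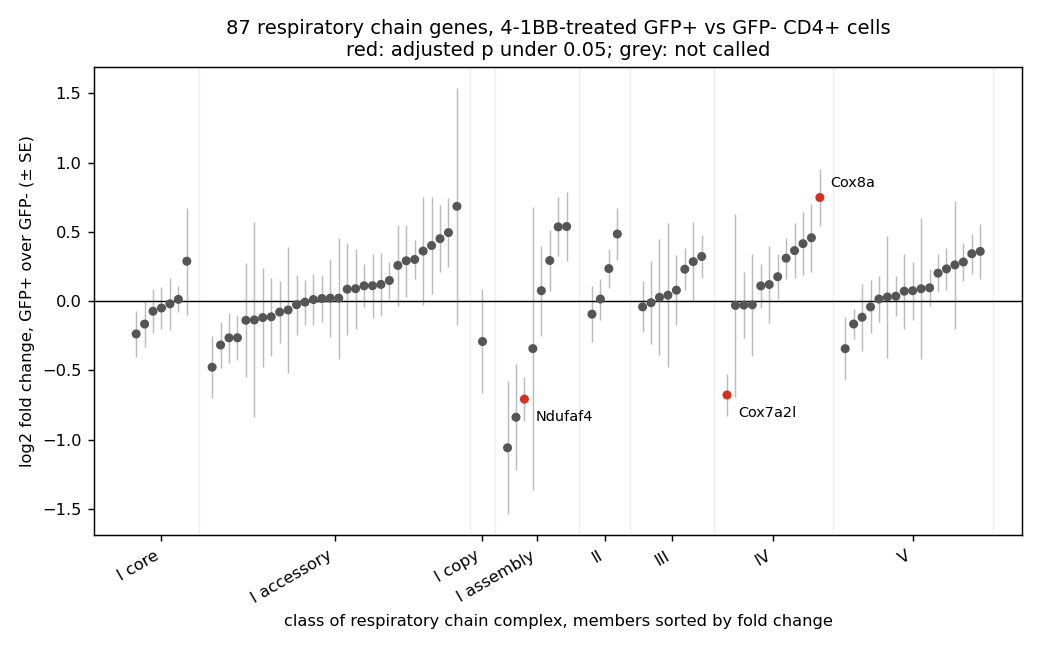
Log2 fold change in GFP+ over GFP- cells of 4-1BB-treated mice for the 87 tested members, with bars of 1 SE, grouped by class and sorted within each class. The 3 called members are red and named; most other points lie within 0.5 of the zero line.

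In complex I, 0 of the 7 core subunits passed the test between GFP+ and GFP- cells. These carry the flavin and iron-sulphur centres from Ndufv1, which takes electrons from NADH, to Ndufs7 near the quinone. Their log2 fold changes ran between -0.24 for Ndufs3 and 0.29 for Ndufs8, and their median SE of 0.16 was below the 0.20 of all genes. Ndufs1, the largest subunit of the complex, had 56.4, 58.3 and 63.2 CPM in GFP+ cells, against 58.8, 61.8 and 55.8 CPM in GFP- cells. Its 95% interval of -0.19 to 0.22 on the log2 scale was among the narrowest of the members.

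None of the 30 accessory subunits of complex I passed, with a median log2 fold change of 0.02 and a range of -0.48 to 0.68. Ndufa6, a subunit of the LYR family in the peripheral arm, was at one end, with 24.3, 16.0 and 24.5 CPM in GFP+ cells and 29.3, 36.2 and 24.9 CPM in GFP- cells. The groups did not overlap, though by a narrow margin, and the adjusted p was 0.111. Ndufa13, also known as GRIM-19, was at the other end, with 28.0, 5.63 and 28.8 CPM in GFP+ cells and 19.4, 14.9 and 5.06 CPM in GFP- cells. Its groups overlapped widely, and the interval of its log2 fold change ran from -1.25 to 2.62.

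The 8 assembly factors of complex I held 5 of the 10 members with an unadjusted p under 0.05, in both directions, and only Ndufaf4 passed the adjustment. Over all tested genes the share at that p was 45.5%. Ndufaf3, the partner of Ndufaf4, had 9.56, 11.0 and 12.1 CPM in GFP+ cells, against 6.22, 7.80 and 8.49 CPM in GFP- cells, a difference of 0.54 ± 0.21 on the log2 scale (adjusted p = 0.0623). Its libraries did not overlap between the fractions. Ndufaf7, a methyltransferase, had 9.84, 7.46 and 10.4 CPM in GFP+ cells, against 5.73, 6.94 and 6.41 CPM in GFP- cells (adjusted p = 0.106). Ndufaf8, a partner of Ndufaf5, had 4.16, 3.53 and 5.48 CPM in GFP+ cells, against 6.46, 10.2 and 7.05 CPM in GFP- cells (adjusted p = 0.102). Ndufaf6 had the most negative fold change of all members, at -1.06 ± 0.48, but rests on levels between 0.786 and 2.68 CPM in the 2 fractions, with an adjusted p of 0.0987. These 4 were named after their values were seen.

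Complex II, succinate dehydrogenase, belongs both to the respiratory chain and to the citric acid cycle, and all its subunits are nuclear. Sdhb, the iron-sulphur subunit, had 41.7, 54.5 and 42.9 CPM in GFP+ cells, against 29.1, 31.7 and 38.3 CPM in GFP- cells. The groups did not overlap, and the log2 fold change of 0.48 ± 0.19 came with an adjusted p of 0.0529, just outside the threshold. It passed when the 2 fractions were fitted alone, with an adjusted p of 0.0454, and without the third GFP- library, with 0.0438. Sdha, the flavoprotein subunit that oxidises succinate, had 140, 120 and 168 CPM in GFP+ cells and 152, 166 and 139 CPM in GFP- cells, with overlapping groups and a log2 fold change of -0.09 ± 0.20. The membrane anchors Sdhc and Sdhd had log2 fold changes of 0.02 ± 0.15 and 0.23 ± 0.14, and neither passed.

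In complex III, 0 of 8 members passed, with a median log2 fold change of 0.06. Uqcrc1 and Uqcrc2, the large core proteins that face the matrix, had fold changes of 0.23 ± 0.15 and 0.32 ± 0.15. Uqcrc2 had 79.7, 109 and 83.0 CPM in GFP+ cells and 63.7, 73.2 and 79.9 CPM in GFP- cells, which overlapped by a fraction of 1 CPM. Uqcrfs1, the Rieske iron-sulphur protein, had a fold change of -0.04 ± 0.18.

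Complex IV, cytochrome c oxidase, held both called subunits, Cox8a and Cox7a2l, among 12 tested members, and their signs were opposite. The other 10 had log2 fold changes between -0.03 and 0.46, with a median over all 12 of 0.15. Cox6b1, which faces the intermembrane space, had 66.0, 83.0 and 70.3 CPM in GFP+ cells, against 47.2, 57.3 and 55.1 CPM in GFP- cells. The groups did not overlap, and the adjusted p was 0.169. Cox4i1, a subunit known for regulation by ATP, had 102, 69.3 and 113 CPM in GFP+ cells and 97.2, 110 and 82.2 CPM in GFP- cells, with a fold change of -0.03 ± 0.37.

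Several complex IV subunits exist as a pair of genes, one used in most tissues and the other in muscle, lung or testis. In these cells the widely used form of each passed the low-count filter and the other did not. Cox7a2 was between 16.6 and 51.1 CPM over the 13 libraries, whereas the muscle form Cox7a1 was between 0 and 0.430 CPM. Cox6a1 was between 27.6 and 57.1 CPM, whereas its muscle form Cox6a2 was at 0 in 12 libraries and at 0.0903 CPM in the third GFP- library. Cox4i2, a form known from lung and from low oxygen, was above 0 in 2 libraries and reached 0.296 CPM, and Cox8b was at 0 in all, where 3 counts correspond to between 0.271 and 0.468 CPM in a library and cover counting error only. Ndufa4, now placed in complex IV, was between 10.9 and 34.1 CPM, and its relative Ndufa4l2, which is induced by hypoxia in other cells, was at 0 in all. The testis form Cox6b2 reached 0.786 CPM in the second GFP+ library and did not pass the low-count filter. Also below the filter were Cox8c, Cox7b2, Cox6c2, the gene copies Ndufb11b, Ndufa11b and Ndufs6b, and a further row named Atp5o that was at 0 in every library. Levels of different genes are not compared per length here, and members with near-identical copies or pseudogenes are uncertain where the authors' counting could have split reads between them.

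In complex V, 0 of 17 tested members passed. Atp5a1 and Atp5b, the alpha and beta subunits that form the catalytic head, had log2 fold changes of 0.10 ± 0.13 and 0.04 ± 0.15, and intervals of -0.19 to 0.38 and -0.28 to 0.35. Atp5d, the delta subunit of the central stalk, had 90.2, 134 and 88.6 CPM in GFP+ cells, against 80.0, 82.1 and 84.8 CPM in GFP- cells. These did not overlap, and the second GFP+ library stood apart (adjusted p = 0.0761). Subunit c, which forms the rotating ring, is encoded by 3 genes. Atp5g3 had a fold change of 0.28 ± 0.14 with an adjusted p of 0.126 and no overlap, whereas Atp5g1 and Atp5g2 had -0.04 ± 0.19 and 0.02 ± 0.17 with overlapping groups.

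The members differed widely in how well their replicates matched. Over the 5 groups, the pooled SD of log2(CPM + 1) between replicates was 0.07 for Ndufs1 and 1.13 for Ndufa13, with a median of 0.28 over the 87 members and 0.22 over all tested genes. Cox6c, a small membrane subunit of complex IV, had an SD of 0.91, with 59.5, 11.7 and 58.6 CPM in GFP+ cells and 54.0, 49.8 and 29.3 CPM in GFP- cells. The second GFP+ library and the third GFP- library were lowest in their groups for Ndufa13, Cox6c, Ndufa5, Uqcrb and Atp5j, the 5 members with the widest spread. Members with a longest protein-coding transcript under 1000 nt in GENCODE M21, an annotation on GRCm38, had a median SD of 0.35 (n = 45), and longer ones 0.21 (n = 40). Over the 85 members with a length, Spearman's rho of the SD was -0.49 with length and -0.35 with mean level. These members share the same libraries, and length and level were not separated. Without the second GFP+ and the third GFP- library together, a setting chosen after seeing the data, Cox7a2l and Ndufaf4 were called and Cox8a was not, with an adjusted p of 0.129.

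**Figure D3:**
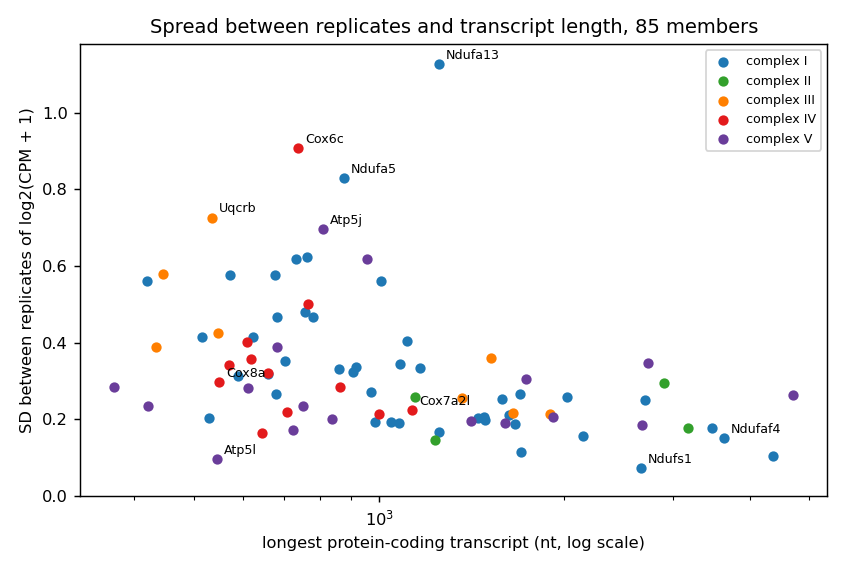
SD between replicates of log2(CPM + 1), pooled over the 5 groups, against the length of the longest protein-coding transcript (log axis), for 85 members coloured by complex. Ndufa13, with the largest SD, has a transcript of 1251 nt, Cox6c lies further towards the short end at 738 nt, and Ndufs1 and Ndufaf4 lie low at the long end.

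Genes that serve the chain without being members were read from lists chosen by function. Of 16 tested regulators of mitochondrial biogenesis and of mitochondrial DNA upkeep, 7 fell and 1 rose in GFP+ cells, with a median log2 fold change of -0.24. Those called were 50.0% of the list, beside 37.1% of all tested genes, made up of 20.7% higher and 16.5% lower. Myc, which drives growth and mitochondrial biogenesis in activated T cells, had 21.8, 23.2 and 26.1 CPM in GFP+ cells, against 78.7, 89.9 and 98.0 CPM in GFP- cells, a log2 change of -1.91 ± 0.23. The coactivators Pprc1 and Ppargc1b fell by 1.19 and 1.02 on the log2 scale, and Twnk, the mitochondrial DNA helicase, fell by 0.99. Esrra, a nuclear receptor that acts on respiratory genes, rose by 0.50. With upper-quartile scaling all of these values shift down by about the 0.14 that separates the medians of all genes.

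Of 41 assembly factors outside the name rule, 6 rose and 5 fell, or 26.8% called, below the 37.1% of all tested genes. Coa7 and Cox10, both of complex IV, fell by 0.99 ± 0.21 and 0.91 ± 0.14 on the log2 scale, Cox10 being the enzyme that makes the precursor of heme A. Sdhaf1, which helps to insert iron-sulphur clusters into complex II, fell by 0.98 ± 0.20, and Cmc2, a complex IV factor, rose by 0.80 ± 0.27. Of 13 genes for cytochrome c and coenzyme Q synthesis, which include the complex III subunit Cyc1, 1 rose and 2 fell, or 23.1%. The riser was Coq8a, a kinase-like protein of coenzyme Q synthesis, with 14.6, 30.2 and 15.2 CPM in GFP+ cells against 6.34, 9.63 and 7.32 CPM in GFP- cells. Of 18 genes of the citric acid cycle and pyruvate entry, 2 rose and 2 fell, or 22.2%, also below the share of all tested genes. Idh3a, a subunit of NAD-dependent isocitrate dehydrogenase, rose by 0.80 ± 0.13, and Pdha1, of pyruvate dehydrogenase, fell by 0.40 ± 0.11.

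The 13 subunits that mitochondrial DNA encodes had 0 calls between GFP+ and GFP- cells with edgeR, 1 at an unadjusted p under 0.05, and 12 negative fold changes with a median of -0.43. Their summed level was 14130, 8845 and 15955 CPM in GFP+ cells, against 18455, 17423 and 13537 CPM in GFP- cells. These overlapped, and the low ones were again the second GFP+ and the third GFP- library. The median SE of 0.75 is wide enough that a 2-fold difference in either direction was not excluded for a typical one. Mitochondrial ribosomal proteins held 5 that rose and 4 that fell of 78, or 11.5%, beside 37.1% of all tested genes called. Cytosolic ribosomal proteins held 50 that fell and 0 that rose of 81, or 61.7%, with a median log2 fold change of -0.85. Proteasome subunits held 5 that rose and 0 that fell of 37, or 13.5%, with a median of 0.22.

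**Figure D4:**
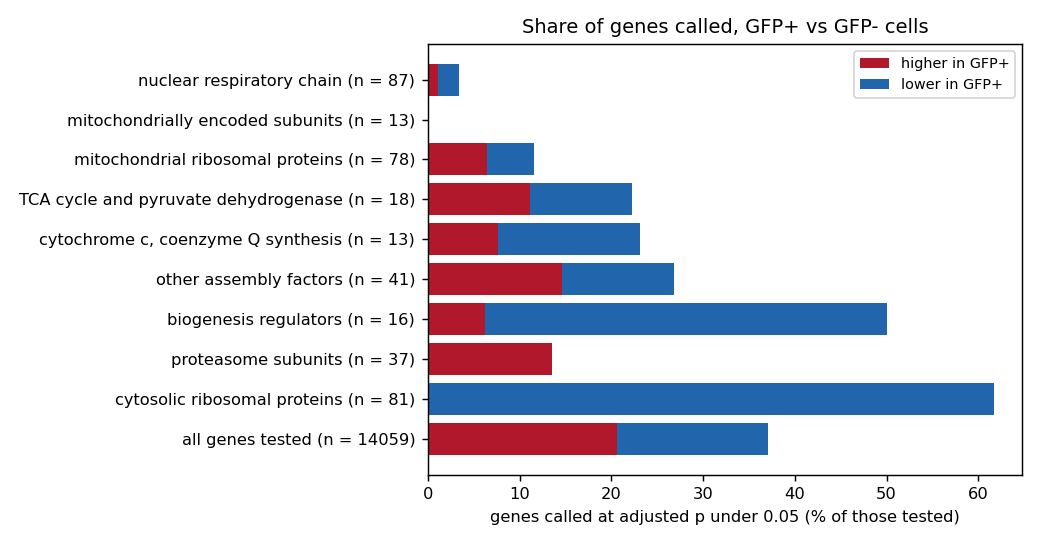
Percent of tested genes called at an adjusted p under 0.05 in GFP+ against GFP- cells, for the respiratory chain members and for other lists, with the part higher in GFP+ cells in red and the part lower in blue. The members had 3 calls among 87 and the mitochondrially encoded subunits 0 among 13, beside 37.1% of all tested genes.

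Markers of dividing cells moved with the sort. All 8 rose in GFP+ cells, with a median log2 fold change of 1.63, and their summed level was between 938 and 1241 CPM in GFP+ cells and between 303 and 400 CPM in GFP- cells. Of 7 myeloid markers 2 rose, Cd68 and Itgam, and their sum was between 48.9 and 81.3 CPM in GFP+ cells and between 17.4 and 34.4 CPM in GFP- cells, with Adgre1 at 0 in 1 GFP+ and 2 GFP- libraries. Of 6 plasma cell and myeloma markers 3 were tested, with a median log2 fold change of 1.55 and a highest of 1.61. Of these 1 rose past the threshold, Irf4, which activated T cells also express, while Tnfrsf17 was at 0 throughout. The sum of the 6 was between 131 and 230 CPM in GFP+ cells and between 91.0 and 97.0 CPM in GFP- cells, with no overlap. Of the 6 T cell markers 4 rose, with a median log2 fold change of 0.51. Their sum was between 4241 and 4912 CPM in GFP+ cells and between 3070 and 3151 CPM in GFP- cells. On the log2 scale, the only tested B cell and NK cell markers fell by 2.27 and 1.53. Of 2 CD8 T cell markers 1 fell by 1.09, and the other, at 0.59, did not pass. The B cell and NK cell sums reached 2.17 and 1.95 CPM at most in these libraries. The part of these genes in the fold changes of the members was not tested.

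GFP+ cells were next set against Eomes-GFP cells of mice given control IgG, a comparison that shares its GFP+ libraries with the one above and in which gate and antibody cannot be told apart. Here 4 members rose and 4 fell, beside 34.2% of all tested genes called, with 18.8% higher and 15.4% lower. The median log2 fold change of the members was 0.18, with 67 of 87 positive, against 0.00 for all genes, and with upper-quartile scaling it was 0.05, with 55 of 87 positive, against -0.14 for all genes. The direction rests on the first IgG library, as the median was -0.0457, with 41 of 87 positive, without it and 0.422, with 70 of 87 positive, without the second IgG library.

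Markers of other cells and of division moved in this comparison too. All 8 markers of dividing cells rose, with a median log2 fold change of 3.71, and their sum was between 938 and 1241 CPM in GFP+ cells and 71.1 and 133 CPM in IgG cells. Of 7 myeloid markers 5 rose, and their sum was between 48.9 and 81.3 CPM in GFP+ cells and 9.41 and 9.30 CPM in IgG cells, with S100a8 and S100a9 at 0 in both IgG libraries. Of the 6 T cell markers 4 rose, with a median log2 fold change of 0.57. The only tested NK cell marker fell by 3.74 on the log2 scale. Of 2 CD8 T cell markers 1 rose by 4.94, and the other had a log2 fold change of -0.97 and did not pass. The CD8 T cell sum was 3.46, 4.19 and 9.35 CPM in GFP+ cells, against 5.34 and 8.81 CPM in IgG cells, which overlapped. The NK cell sum was between 0.524 and 0.752 CPM in GFP+ cells, against 6.99 and 6.66 CPM in IgG cells. The part of these genes in the fold changes of the members was not tested.

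Cox8a was again higher, with 87.6, 129 and 89.1 CPM in GFP+ cells, against 48.8 and 57.8 CPM in IgG cells (log2 fold change 0.93 ± 0.24, adjusted p = 0.00812). Ndufb8, an accessory subunit in the membrane arm of complex I, had 38.0, 39.0 and 37.2 CPM in GFP+ cells, against 22.8 and 25.0 CPM in IgG cells (0.67 ± 0.16, adjusted p = 0.00452). Its 3 GFP+ libraries lay within 2 CPM of each other and far above both IgG libraries. Cox5b, a zinc-binding subunit of complex IV, had 44.9, 41.8 and 47.9 CPM in GFP+ cells, against 22.1 and 35.0 CPM in IgG cells (0.64 ± 0.23, adjusted p = 0.0389). Atp5d had 90.2, 134 and 88.6 CPM in GFP+ cells, against 71.2 and 66.4 CPM in IgG cells (0.60 ± 0.16, adjusted p = 0.0103). Neither of the last 2 genes overlapped between the groups, though the IgG libraries differed from each other for Cox5b.

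Ndufaf4 fell most, by 0.84 ± 0.17 on the log2 scale, with IgG libraries at 21.7 and 23.3 CPM (adjusted p = 0.00165). Ndufab1, the mitochondrial acyl carrier protein that is also a subunit of complex I, had 16.4, 13.2 and 19.0 CPM in GFP+ cells, against 23.4 and 25.4 CPM in IgG cells (-0.59 ± 0.18, adjusted p = 0.0209). Cox7a2l had IgG levels of 222 and 206 CPM (-0.59 ± 0.17, adjusted p = 0.0159). Ndufb2, a small accessory subunit, had 10.3, 11.4 and 8.81 CPM in GFP+ cells, against 14.5 and 15.6 CPM in IgG cells (-0.57 ± 0.18, adjusted p = 0.0231). The IgG group has 2 libraries, and leaving out either changed the calls. Without the first IgG library only Ndufaf4 passed, and without the second Ndufaf4, Cox8a, Ndufb8 and Cox5b passed.

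GFP- cells against the same IgG cells gave 0 member calls with edgeR, beside 0.761% of all tested genes, and 2 members at an unadjusted p under 0.05, beside 8.76% of all tested genes. The median log2 fold change was 0.10, with 70 of 87 positive. It was -0.042, with 36 of 87 positive, without the first IgG library and 0.266, with 72 of 87 positive, without the second. Of the 8 markers of dividing cells 5 rose in GFP- cells, where their sum was between 303 and 400 CPM. Of 7 myeloid markers 1 rose, and the only tested NK cell marker fell by 2.22 on the log2 scale. The part of these markers in the fold changes of the members was not tested. The 2 members at an unadjusted p under 0.05 were Ndufb6 and Ndufb8. Ndufb6 had 6.59, 8.04 and 10.7 CPM in GFP- cells, against 4.32 and 5.29 CPM in IgG cells, a fold change of 0.81 ± 0.33 with an adjusted p of 0.448. Ndufb8 had 31.8, 32.2 and 28.7 CPM in GFP- cells, against 22.8 and 25.0 CPM in IgG cells, a fold change of 0.37 ± 0.16 with an adjusted p of 0.498. Ndufb2, Atp5d and Ndufab1 followed, at -0.30 ± 0.18, 0.26 ± 0.16 and -0.27 ± 0.18. This comparison shares its IgG libraries with the one before it and its GFP- libraries with the sort. For Cox8a, Cox7a2l and Ndufaf4 the fold changes of GFP- over IgG cells were 0.18, 0.09 and -0.13.

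The genotype was compared under control IgG, where both groups were undivided. Eomes-TKO against Eomes-GFP cells gave 0 member calls with edgeR, beside 0.0142% of all tested genes, and 2 members at an unadjusted p under 0.05, beside 3.06% of all tested genes. The median log2 fold change was -0.06, with 28 of 87 positive. Its direction turned on single libraries, at 0.0712 without the third Eomes-TKO library and 0.134 without the second Eomes-GFP library, against -0.22 without the first Eomes-GFP library and -0.178 without the second Eomes-TKO library. Atp5mpl, a small membrane protein of ATP synthase, had 13.6, 11.2 and 8.50 CPM in Eomes-TKO cells, against 14.9 and 19.2 CPM in Eomes-GFP cells (-0.61 ± 0.25, adjusted p = 1). Ndufaf3 had 9.28, 9.76 and 11.7 CPM in Eomes-TKO cells, against 6.99 and 7.24 CPM in Eomes-GFP cells (0.52 ± 0.24, adjusted p = 1). Neither overlapped, and neither passed. Uqcrq, Atp5k and Atp5g3 followed with -0.59 ± 0.29, -1.06 ± 0.54 and -0.28 ± 0.15, Atp5k at levels of 0.690 to 2.16 CPM. All 8 markers of dividing cells had negative log2 fold changes, with a median of -0.45, and 0 passed.

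Within Eomes-TKO mice, the 4-1BB antibody against control IgG gave 0 member calls with edgeR, beside 0.0427% of all tested genes, and 1 member at an unadjusted p under 0.05, beside 3.6% of all tested genes. The median log2 fold change was 0.09, with 56 of 87 positive. It was 0.291, with 79 positive, without the first 4-1BB library, -0.234, with 15 positive, without the second, and -0.056, with 32 positive, without the third IgG library, so that single libraries turned its direction. Atp5mpl had 14.2 and 20.1 CPM after the 4-1BB antibody, against 13.6, 11.2 and 8.50 CPM after IgG (0.63 ± 0.25, adjusted p = 1). Ndufaf3 had 6.09 and 9.07 CPM after the 4-1BB antibody, against 9.28, 9.76 and 11.7 CPM after IgG (-0.42 ± 0.24, adjusted p = 1). Neither passed, and this comparison shares its Eomes-TKO IgG libraries with that of the genotype. Ndufaf7, Atp5g3 and Uqcrq had fold changes of 0.50 ± 0.28, 0.28 ± 0.16 and 0.46 ± 0.29, with overlapping groups. All 8 markers of dividing cells had positive log2 fold changes, with a median of 1.95. In edgeR all 8 had an unadjusted p under 0.05, and 0 passed the adjustment. Their sum was 133 and 347 CPM after the 4-1BB antibody, against 64.4, 84.3 and 56.3 CPM after IgG. The part of these markers in the fold changes of the members was not tested.

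Undivided Eomes-TKO cells against GFP- cells, both after the 4-1BB antibody, also gave 0 member calls with edgeR, beside 0.0427% of all tested genes, and 1 member at an unadjusted p under 0.05, beside 6.97% of all tested genes. Genotype and gate cannot be told apart here. The median log2 fold change was -0.11, with 22 of 87 positive. Without the first Eomes-TKO library it was 0.13, with 68 positive, and without the second it was -0.44, with 6 positive. Ndufb8 had 20.9 and 25.3 CPM in Eomes-TKO cells, against 31.8, 32.2 and 28.7 CPM in GFP- cells (-0.41 ± 0.16, adjusted p = 0.648). Ndufaf8, Ndufaf7, Atp5d and Ndufb11 followed with -0.67 ± 0.43, 0.43 ± 0.28, -0.24 ± 0.16 and -0.34 ± 0.26. All 8 markers of dividing cells had negative log2 fold changes, with a median of -0.58, and 0 passed. In the 3 comparisons with Eomes-TKO cells the interval of the log2 fold change lay within a 2-fold change for between 63 and 66 of the 87 members. That was 72.4% to 75.9% of them, near the 66.3% to 68.3% of all tested genes.

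The summed level of all members overlapped between the groups, and single libraries stood apart. It was 3760, 4003 and 3938 CPM in GFP+ cells and 3559, 3977 and 3672 CPM in GFP- cells. It was 2839 and 4080 CPM in Eomes-TKO cells after the 4-1BB antibody and 3534, 3811 and 2636 CPM after IgG, and 3178 and 3763 CPM in Eomes-GFP cells after IgG. The third Eomes-TKO IgG library was the lowest of the 13 for 44 of the 87 members, and the first Eomes-TKO 4-1BB library was below the second for 82 of 87. All 5 complexes were lower together in these libraries, as the plot of summed levels shows. Cytosolic ribosomal proteins were lower there too, with 37320 against 55363 CPM in the first and second Eomes-TKO 4-1BB libraries and 29092 CPM in the third Eomes-TKO IgG library against 47161 and 50857 CPM in the others of its group.

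In 5 of 5 groups the library with the fewest counts also had the lowest summed level of members, although these levels are scaled for library size. The part of depth in this was not tested. In GFP+ cells the cytosolic ribosomal proteins and the members parted, as the ribosomal sum was between 25646 and 29960 CPM in GFP+ cells and between 47764 and 55694 CPM in GFP- cells, with no overlap, while the sums of members overlapped.

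**Figure D5:**
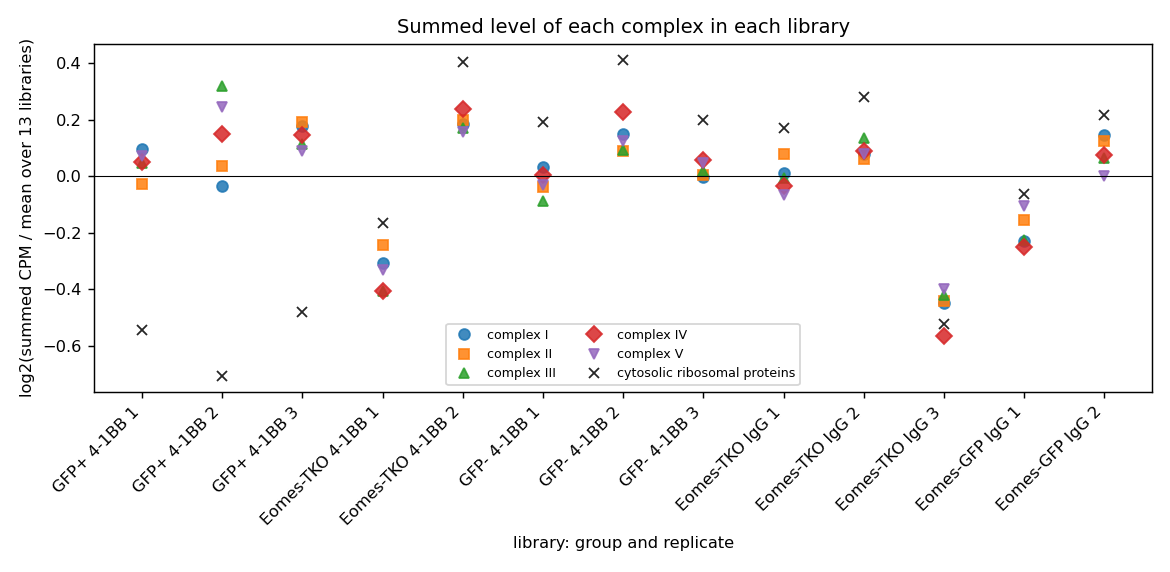
Summed CPM of each complex and of cytosolic ribosomal proteins in each library, as the log2 ratio to the mean over the 13 libraries. The complexes lie together within a library, low in the first Eomes-TKO 4-1BB, the third Eomes-TKO IgG and the first Eomes-GFP IgG library, and the ribosomal proteins are low in the 3 GFP+ libraries, where the complexes are near or above the mean.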

How the data were processed

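Total RNA from sorted spleen CD4+ T helper cells was sequenced after ribosomal RNA depletion, from 11 ng of RNA, per the labels' protocols. The deposited table gives estimated counts for each gene, and no other unit was used. The GRCm39 build, Salmon 1.5.2, STAR 2.7.10a, Trim Galore 0.6.7 and cutadapt 3.4 are named per the submitters' processing notes. The table held 56748 genes in 47 library columns, of which 13 matched the labels of a sample each. The other 34 columns were not used here. All values were rounded, since 6.25% to 7.33% of a library's were not whole.

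The main test was that of edgeR 4.0.16 (R 4.3.3): TMM scaling, filterByExpr (14059 genes left) and the two-sided robust quasi-likelihood test, with p-values adjusted by Benjamini-Hochberg over all genes left and called under 0.05. All 13 libraries of 5 groups entered 1 model with 8 residual degrees of freedom and share its estimate of the spread. Adjusted p-values come from this model unless a setting is named. An SE was taken from the fold change and its F statistic. Levels are TMM-scaled CPM, so they do not show changes in RNA per cell. The test was tried on simulated counts with known fold changes. DESeq2 1.42.0 and limma 3.58.1 (voom), other scalings, filters, blocks and left-out libraries were alternatives.

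Fractions numbered alike carry the same library prefix, which was read as the animal. Over all genes, the deviations of the 2 members of a pair from their group means correlated at 0.317, 0.112 and 0.061, and the block was run as an alternative. Nothing else in the labels ties replicates to separate animals, so a p-value here speaks of the scatter among the libraries, which may be technical. No replicates matched within counting noise, as chi-square values over their degrees of freedom were 7.5 to 28.2.

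The members and lists were chosen with earlier results of these data known. The rule for naming members took, in each class, up to 3 called members per direction with no overlap between GFP+ and GFP- libraries; in other comparisons, up to 5 called per direction, or the 5 with the smallest p. It added the Sdh genes, the paralogue sets and the subunit c genes. Members named outside it were chosen after their values were seen. Transcript lengths came from GENCODE M21 and promoter windows from RefSeq GRCm38.p6; no GRCm39 coordinates were used. The NRF1 and YY1 words were shortened by 1 letter after a first count of their matches had been seen. Some genes are not reported here.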

Additional observations from a re-analysis of the deposited data

How the results depend on the processing

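Counts of members called kept within 1.5 times their main value in 74 of 82 alternatives. Most of these belong to comparisons with 0 calls in the main setting, where 0 against 0 was counted as kept. Only 15 alternatives of GFP+ against GFP- cells and 13 of GFP+ against Eomes-GFP IgG cells had calls to keep. The pooled count therefore says little about how stable the calls are. For GFP+ against GFP- cells 3 members were called in the main setting. Upper-quartile scaling gave 5, no low-count filter 8, the 2 groups fitted alone 7, and leaving out single libraries between 2 and 4. Over all genes, 2905 were higher and 2315 lower in the main setting, and 2186 and 3095 with upper-quartile scaling. There were 2820 and 2603 without the filter, and 2621 and 2424 with the 2 groups alone. For GFP+ against Eomes-GFP IgG cells, with 8 called, leaving out single libraries gave between 1 and 8; the lone IgG library left is then assumed to vary like the other groups. For Eomes-TKO against Eomes-GFP cells under IgG, and for the 4-1BB antibody against IgG in Eomes-TKO cells, no low-count filter gave 2 calls each in place of 0, while leaving out single libraries or, as chosen after seeing the data, the lowest library of both groups gave 0. Without the filter, calls over all genes rose too. They went from 0 higher and 2 lower to 33 and 79 for the genotype under IgG. For the antibody in Eomes-TKO cells they went from 6 higher and 0 lower to 224 and 34. The cause of these changes was not tested.

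With the library prefix as a replicate block, 3 members were called between GFP+ and GFP- cells, as without it. With the replicate number as a block, which pairs no libraries of other comparisons by animal, 14 were called between GFP+ and Eomes-GFP IgG cells. In each of the other 4 comparisons 0 were called. Over all genes, that block gave 2726 higher and 2256 lower between GFP+ and Eomes-GFP IgG cells, against 2642 and 2167 without it.

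Of 597 values of named members under the alternatives, 539 kept their side of the threshold and direction, 25 lost a call, 5 gained it and 28 changed sign. All that changed sign were uncalled, and all but Uqcrq, at 0.46 with all libraries, lay near 0. Between GFP+ and GFP- cells, upper-quartile scaling gave -0.0127 for Ndufa4, -0.12 for Sdhc and -0.13 for Atp5g2. Sdhc and Atp5g2 were at -0.0110 and -0.0112 without a filter, at -0.0349 and -0.0353 with a mean of at least 5 CPM and at -0.0293 and -0.0291 with the 2 groups alone, and Atp5g2 was at -0.0071 in limma-voom and -0.00457 with the prefix block. With single libraries left out, Cox6a1 was between -0.16 and 0.0836, Cox4i1 between -0.21 and 0.12, Sdhc between -0.0915 and 0.13, Atp5g2 between -0.23 and 0.12, Atp5g1 between -0.22 and 0.0536 and Ndufa4 between -0.12 and 0.29. Without the second GFP+ and the third GFP- library together, Cox4i1 was at 0.0273 and Atp5g2 at -0.21. In Eomes-TKO cells, 4-1BB antibody against IgG, Uqcrq was between -0.0789 and 0.82 with single libraries left out. Depth limits what can be said of members near 1 CPM, such as Ndufaf2.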

Other observations

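Atpif1, the inhibitor of ATP synthase, lies outside the name pattern and was read in addition. Its level was 24.0, 11.9 and 25.8 CPM in GFP+ cells, against 13.7, 12.9 and 7.05 CPM in GFP- cells. These overlapped, and the log2 fold change of 0.89 ± 0.46 (SE, n = 3 each) did not pass in edgeR, with an adjusted p of 0.159. Against Eomes-GFP cells after IgG, with 3.05 and 10.1 CPM, GFP+ cells were higher by 1.62 ± 0.55, with an adjusted p of 0.0396. The groups of this second comparison did not overlap.

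Of the 87 tested members, 24 were higher in GFP+ cells in all 3 pairs of fractions that share a library prefix, 10 were lower in all 3, and the others were mixed. The 10 include Cox7a2l and Ndufaf4, and the 24 include Cox8a. No test was made of these counts, and they were not made over all tested genes. The median log2 fold change of the members was 0.04, beside 0.02 for all tested genes.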
